A study of Rattus norvegicus with 6 samples.

Results

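The genes described here code for the proteins that seal and connect epithelial cells. They include the claudins and occludin of tight junctions, and tricellulin and the angulins that close the corners between cells. Also included are the scaffolds and junctional adhesion molecules beside them, and the connexins and pannexins that form channels between or out of cells. All these genes were chosen by symbol among the protein-coding rows of a count table of rat vestibular epithelium. The choice gave 57 members of 32883 genes: 22 claudins, 7 tricellular or MARVEL proteins, 6 scaffolds or adhesion molecules, 19 connexins and 3 pannexins. RNA was sequenced from 3 Control and 3 STREP Long-Evans rats, each group holding 2 males and 1 female, and each library came from the 2 utricles and 6 cristae of 1 animal. STREP animals were injected under the skin with streptomycin, an aminoglycoside antibiotic toxic to hair cells (HCs), at 500 mg/kg every day for 6 weeks from postnatal day 21, and Control animals received the vehicle, PBS. The comparison asks whether junction transcripts differed after this exposure. In the numbering used below, replicate 3 is the female of each group, and the numbers pair no animals.

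Vestibular HCs and the supporting cells around them separate the potassium-rich endolymph from the fluid at their bases. Claudins set which ions may pass between the cells, tricellulin and the angulins seal the points where the corners of neighbouring cells meet, and the ZO scaffolds tie these proteins to actin. Connexins join supporting cells into a network through which ions and small molecules move, whereas mature HCs are not coupled in this way. In humans, loss of several of these proteins causes deafness.

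Library totals ran from 48568191 to 59906048 counts in Control and from 29333584 to 33744909 in STREP animals, so depth separated the groups, and all values below are normalised counts, meaning counts divided by the size factor of the library. They are not corrected for transcript length and are compared between animals for a gene, not between genes. The summed HC markers ran from 75454 to 77324 normalised counts in Control and from 64112 to 74882 in STREP animals, without overlap. The nearest values, 75454 and 74882, lay close together. Otof and Myo6 made up most of each sum, and each of these genes by itself overlapped between groups. The summed supporting cell markers ran from 485427 to 602430 in Control and from 580955 to 963226 in STREP animals, and Otog made up most of each sum. No gene of either list was at 0 in all libraries. The tissue also held nerve, since the summed Schwann cell markers ran from 244557 to 323856 in Control and from 137525 to 265833 in STREP animals. In such pooled tissue, fewer cells of a type and less RNA per cell cannot be told apart.

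Of the 57 members, 7 had no counts in any library, among them Cldn2, Cldn18, Cldn25, Gja10, Gjd4 and Gje1. Among the 50 that were counted, 45 were tested, 41 had a mean of at least 10 normalised counts and 32 a mean of at least 100. The 5 counted but untested genes were Cldn16, Gja3, Gjb5, Gjd3 and Panx3, which had at most 16 counts in any library. A gene was called when its DESeq2 adjusted p was under 0.05 over all genes and its fold change exceeded 1.5 in either direction. Only Cldn7 was called, higher in STREP animals, beside 3.24% of all 16250 genes tested that were called in either direction and 1.87% that were called higher. An unadjusted DESeq2 p under 0.05 was found for 7 of the 45 members (15.6%) and for 12.2% of all genes. The Control and STREP values did not overlap for 8 of the 45 (17.8%), the same share as among all genes tested (17.8%). These shares were near the background, and the median log2 fold change of the 41 members was 0.031, beside 0.0057 for all genes with that mean.

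**Figure D1:**
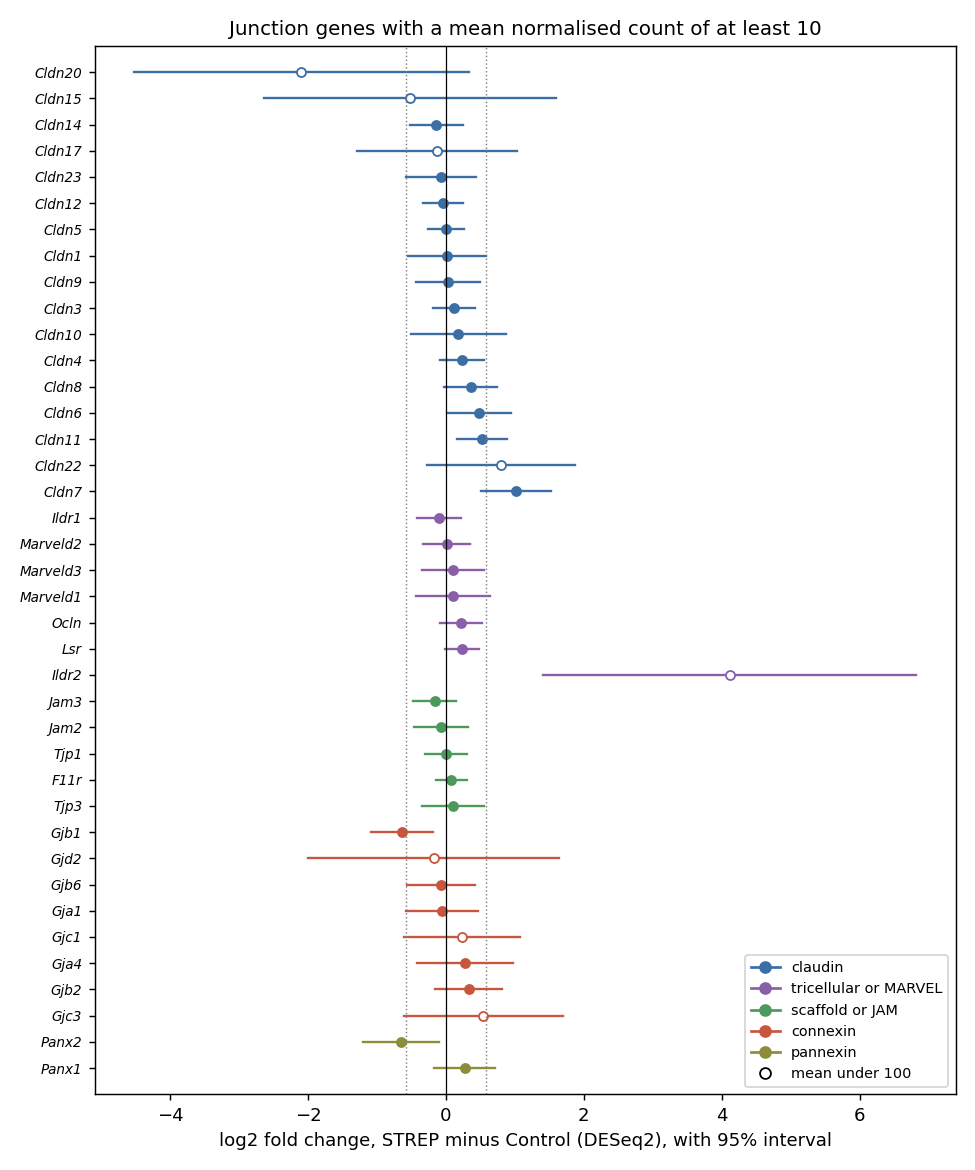
Log2 fold change, STREP minus Control, with its 95% interval (DESeq2) for 39 of the 41 members averaging 10 or more normalised counts, coloured by family, with open circles for means under 100 and dotted lines at a fold change of 1.5 in either direction. Of the 31 plotted members averaging 100 or more, 19 have the interval inside the dotted lines, Cldn7 lies at 1.02, and the genes with few counts, such as Ildr2 at 4.12, have wide intervals.

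Cldn7, a claudin found along the lateral membranes of many epithelia, gave the clearest difference among the tight junction genes. It stood at 658, 339 and 503 normalised counts in Control replicates 1, 2 and 3 and at 856, 1162 and 1020.2 in STREP replicates 1, 2 and 3. Each STREP animal was above every Control animal, and the means were 500.3 ± 159.7 and 1013 ± 153 (SD, n = 3). The fold change was 2.02 (95% interval 1.43 to 2.87) and the log2 fold change 1.02 ± 0.26 (SE, DESeq2 adjusted p = 0.00401). The size of the difference held in every refit, with log2 fold changes from 0.80 to 1.26 when single animals were left out, but the call did not. Cldn7 was not called by the edgeR quasi-likelihood test (1.01, adjusted p = 0.0666 with a count filter and 0.0794 without), with library totals as size factors (1.00, DESeq2 adjusted p = 0.0655), among males alone (1.01, DESeq2 adjusted p = 0.0735) or without STREP replicate 2 (0.90, DESeq2 adjusted p = 0.0609). The bases before the RefSeq start of Cldn7 are shown because it was the only member called. They lie at chr10:55188420-55188669 on the + strand of GRCr8, 250 bases ending just before the start, with the E-box CACCTG, or its complement CAGGTG, in capitals. This E-box is bound by the SNAI and ZEB repressors of epithelial genes.
Cldn7: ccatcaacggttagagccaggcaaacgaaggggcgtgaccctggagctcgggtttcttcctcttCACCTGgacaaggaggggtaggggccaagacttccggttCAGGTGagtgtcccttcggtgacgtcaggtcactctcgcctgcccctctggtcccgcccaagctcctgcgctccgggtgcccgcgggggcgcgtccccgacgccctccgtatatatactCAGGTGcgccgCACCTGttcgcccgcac
The 4 matches begin 186, 147, 28 and 17 bases before the start and overlap no match of the other motifs searched. RefSeq promoter windows, 250 bases before to 50 after each start, were found for 41 of the 57 members, of which 16 (39.0%) held the E-box on either strand, beside 20.1% of all 27457 genes with a window. The GC box GGGCGG was held by 23 of the 41 (56.1%) and by 36.0% of all genes, the TATA box TATAAA by 4 (9.76%) and by 15.3%, and the GRHL core AACCNNTT by 4 (9.76%) and by 10.9%. These are counts of letters in a window, not of sites in use. A gene was counted if any of its windows held the motif. The members were all protein-coding, whereas the background was not limited by gene type, so the shares are not like for like.

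Other claudins differed by less. Cldn11, which forms barriers in myelin and in the basal cell layer of the cochlear lateral wall, stood at 2404, 3417 and 3228 normalised counts in Control and at 4596, 3574 and 4872 in STREP animals. The groups did not overlap, the nearest values being 3417 and 3574, and the log2 fold change was 0.53 ± 0.18 (SE, DESeq2 adjusted p = 0.0942). Without STREP replicate 2, the STREP animal nearest to the Control values, Cldn11 was called (0.65, DESeq2 adjusted p = 0.0225). Removing the nearest animal widens the difference by construction, so that call adds no support. Cldn6, a claudin best known from embryonic epithelia, also did not overlap. It had 262, 234 and 292 normalised counts in Control and 329, 422 and 347 in STREP animals (0.48 ± 0.24, DESeq2 adjusted p = 0.379). The reads of Cldn6 and of Cldn9, a neighbouring and closely similar gene, may be divided between them by the quantification. Cldn20 was the only claudin with all STREP values below all Control values, at 37.4, 13.6 and 15.5 against 3.99, 0 and 12.0 normalised counts (-2.10 ± 1.24, DESeq2 adjusted p = 0.532), and its counts were too low to fix the size of the difference.

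Cldn9, a claudin needed for hearing in mice, differed more between the animals of a group than between the groups. It stood at 44848, 46298 and 61508 normalised counts in Control and at 42450.0, 38046 and 75497 in STREP animals. The female was the highest animal of each group and the groups overlapped (log2 fold change 0.03 ± 0.24, DESeq2 adjusted p = 0.989). Cldn8, a claudin of the distal nephron and other tight epithelia, had 13361, 13713 and 15411 normalised counts in Control and 18064, 13163 and 23172 in STREP animals. Here too the female was the highest of her group, STREP replicate 2 lay below all Control animals, and the log2 fold change was 0.36 ± 0.19 (DESeq2 adjusted p = 0.466).

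The other ear or well-counted claudins overlapped. Cldn14, which is mutated in a recessive human deafness, stood at 753, 658 and 936 normalised counts in Control and at 759, 670.5 and 700.1 in STREP animals, a difference of -0.14 ± 0.20 on the log2 scale. Cldn3, a barrier-forming claudin, stood at 7234, 6317 and 6333 in Control and at 6239, 6849 and 8450.4 in STREP animals (0.12 ± 0.15). For Cldn14 the fold change had a 95% interval of 0.694 to 1.19 and for Cldn3 of 0.878 to 1.34, so differences beyond 1.5-fold lay outside both. Cldn5, the claudin of endothelium, had a fold change interval of 0.838 to 1.20, and none of the 11 endothelial markers found was called by DESeq2 or edgeR, with 1 at an unadjusted DESeq2 p under 0.05. Across the 17 claudins with a mean of at least 10, 11 log2 fold changes were above 0 and 6 below, and the median was 0.031. The summed claudin counts took 0.203% to 0.238% of the library in Control and 0.219% to 0.253% in STREP animals, ranges that overlapped.

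**Figure D2:**
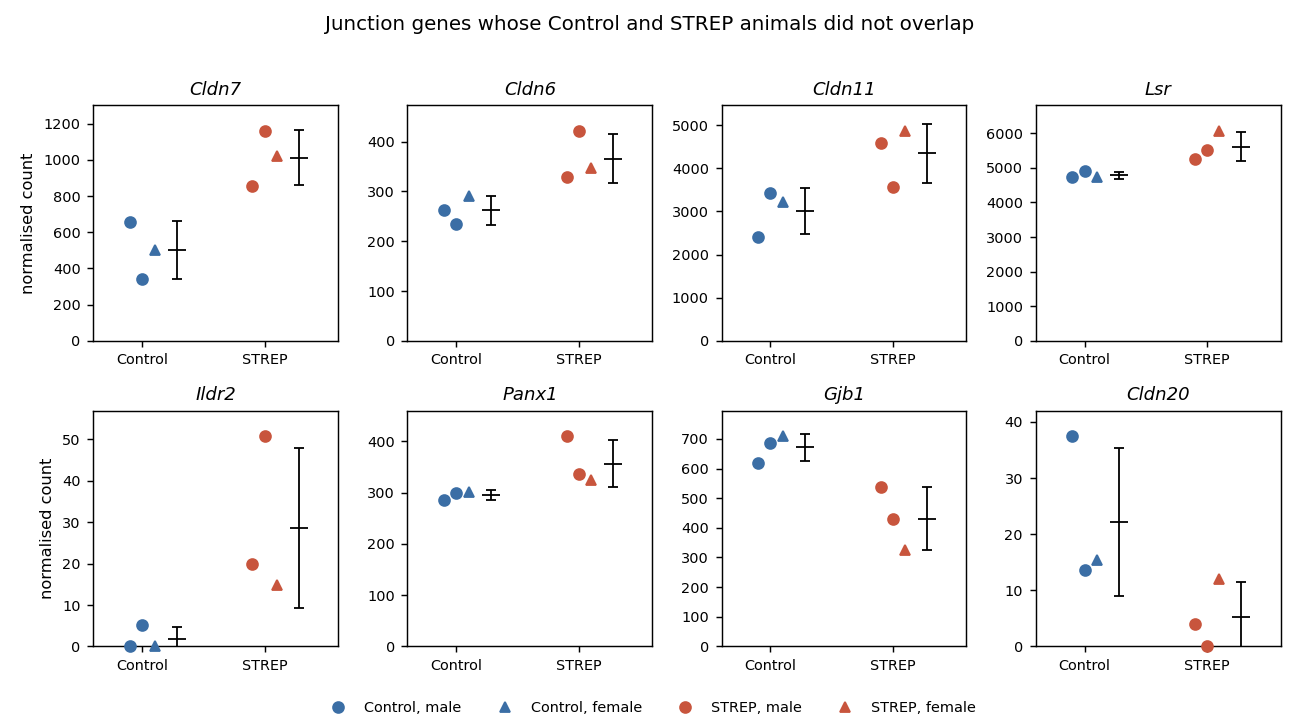
Normalised counts per animal of the 8 tested members whose Control and STREP values did not overlap, with circles for males, triangles for females, and the mean ± SD of each group (n = 3, bars ending at 0 where the SD passes it). Of these, 6 were higher and 2, Gjb1 and Cldn20, lower in STREP animals, and only Cldn7 was called.

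At the corners between cells, the main deafness genes showed no call. Marveld2, which codes for tricellulin, stood at 1207, 1095 and 1323 normalised counts in Control and at 1310.1, 1036 and 1306 in STREP animals. Ildr1, an angulin that recruits tricellulin, stood at 3054, 3249.9 and 4007 in Control and at 3016, 2992 and 3628 in STREP animals. Both genes overlapped between groups, with log2 fold changes of 0.01 ± 0.17 and -0.10 ± 0.16 (SE) and fold change intervals of 0.796 to 1.27 and 0.750 to 1.16. Ocln, the gene of occludin, a MARVEL protein of tight junction strands, stood at 2708, 2946 and 2898 in Control and at 3362, 2806 and 3819 in STREP animals (0.22 ± 0.16). Ocln overlapped through STREP replicate 2 only.

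The other angulins lay higher in all STREP animals without being called. Lsr, the angulin of many epithelia, stood at 4724, 4908 and 4730.0 normalised counts in Control and at 5259, 5511 and 6076 in STREP animals. The groups were apart but close, with a fold change of 1.17 (95% interval 0.992 to 1.39, DESeq2 adjusted p = 0.456). Ildr2, the third angulin, was nearly uncounted in Control, with 0, 6 and 0 counts, against 15, 47 and 10 counts in the STREP libraries, although these were the shallower ones. Normalised, this was 0, 5.10 and 0 against 19.97, 50.7 and 15.0 (log2 fold change 4.12 ± 1.38, fold change interval 2.66 to 113, DESeq2 adjusted p = 0.0690). Leaving out Control replicate 2, the only Control animal with Ildr2 counts, made it a call (DESeq2 adjusted p = 0.00220), and no other animal did. That refit left Control with 0 counts, so the call follows from the animal removed and adds no support. Marveld1 and Marveld3, MARVEL proteins related to occludin, both had log2 fold changes of 0.10.

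The cytoplasmic scaffolds and adhesion molecules were the least variable family. F11r, which codes for the adhesion molecule JAM-A, stood at 7898, 8315 and 8754 normalised counts in Control and at 8589, 8645 and 9158 in STREP animals (0.08 ± 0.12). Jam2, an adhesion molecule also found in endothelium, stood at 4255, 5418 and 3527 in Control and at 5046, 3425 and 4129 in STREP animals (-0.07 ± 0.20). In both genes the groups overlapped. The 6 members of this family, which include Tjp1, Tjp3 and Jam3, had log2 fold changes between -0.16 and 0.10, and none was called or had groups that did not overlap.

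Gjb2 and Gjb6 code for Cx26 and Cx30, the connexins that form mixed gap junctions between supporting cells, and they are neighbours on the chromosome. The bases before their RefSeq starts are shown because both genes were highest in the same animals. Gjb2 has 250 bases at chr15:35381954-35382203 and Gjb6 at chr15:35410139-35410388, both on the - strand of GRCr8 and written along the gene, with the same E-box in capitals. RefSeq lists 2 starts for Gjb6, and the sequence is that of the window listed first. The 250 bases before the other start, at chr15:35408963-35409212, hold 0 matches of this E-box.
Gjb2: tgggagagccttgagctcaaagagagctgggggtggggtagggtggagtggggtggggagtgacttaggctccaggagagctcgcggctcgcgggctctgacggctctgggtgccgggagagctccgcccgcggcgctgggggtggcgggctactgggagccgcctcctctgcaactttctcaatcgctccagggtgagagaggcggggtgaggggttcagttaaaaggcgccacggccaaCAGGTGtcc
Gjb6: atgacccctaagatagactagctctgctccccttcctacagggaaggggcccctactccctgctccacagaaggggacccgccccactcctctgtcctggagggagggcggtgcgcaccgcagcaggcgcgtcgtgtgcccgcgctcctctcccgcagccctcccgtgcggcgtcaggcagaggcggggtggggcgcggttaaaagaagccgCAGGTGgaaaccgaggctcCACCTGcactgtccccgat
The match in Gjb2 begins 9 bases before the start, and those in Gjb6 begin 38 and 19 bases before it.

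Gjb6 stood at 72226, 90660.3 and 102623 normalised counts in Control and at 75735, 53173 and 122981 in STREP animals. Gjb2 stood at 27608, 35064 and 41288 in Control and at 36587, 30517 and 63353 in STREP animals. The female was highest in both groups for both genes, the groups overlapped, and neither gene was called, with log2 fold changes of -0.08 ± 0.25 for Gjb6 (DESeq2 adjusted p = 0.974) and 0.33 ± 0.25 for Gjb2 (DESeq2 adjusted p = 0.699).

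The ratio of Gjb6 to Gjb2 within an animal, which does not depend on how libraries are scaled, separated the groups. It was 2.62, 2.59 and 2.49 in Control and 2.07, 1.74 and 1.94 in STREP animals. Every STREP animal, the female included, was below every Control animal, whereas the Gjb6 and Gjb2 values themselves overlapped. The mean log2 ratio was 1.36 ± 0.039 for Control and 0.94 ± 0.13 for STREP (SD over 3 animals), a difference of -0.42 (exact two-sided permutation p = 0.1, the smallest that 3 animals against 3 can give). Over the 4 ratios examined, the Benjamini-Hochberg adjusted value was 0.4 (exact permutation test), so the difference did not pass a threshold of 0.05 and could not have. The difference lay between -0.48 and -0.35 without any single animal and at -0.45 among males alone. Both transcripts are well counted, and their reads may be divided between similar genes by the quantification.

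**Figure D3:**
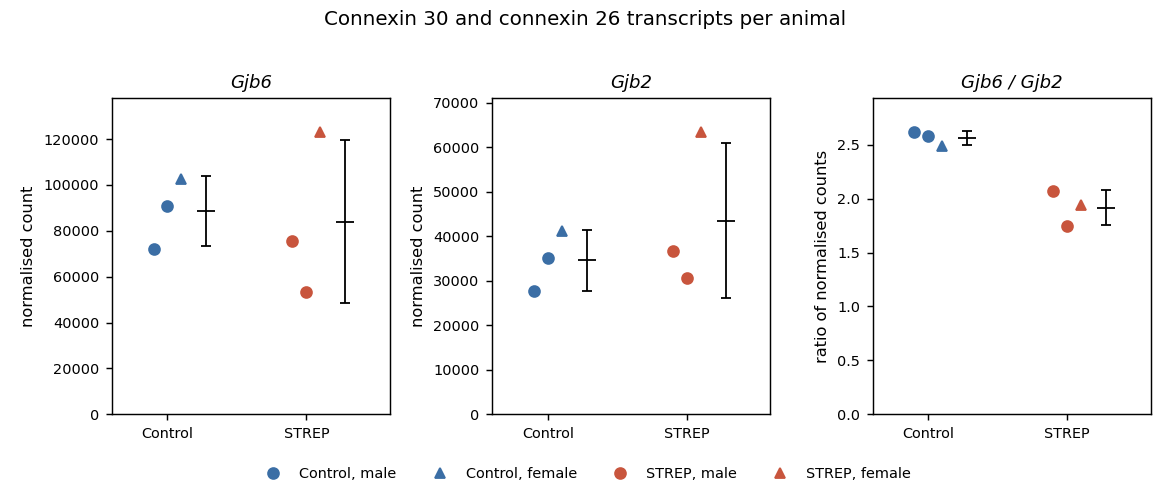
Normalised counts of Gjb6 and Gjb2 and their ratio in each animal, with circles for males, triangles for females, and the mean ± SD of each group (n = 3). The counts overlapped between groups, with the female highest in each, while the ratio ran from 2.49 to 2.62 in Control and from 1.74 to 2.07 in STREP animals.

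Among the other ratios, 2 are given, and both overlapped between groups. That of Marveld2 to its partner Ildr1 differed by 0.10 on the log2 scale (exact two-sided permutation p = 0.5) and that of the neighbouring genes Cldn9 and Cldn6 by -0.50 (exact permutation p = 0.4).

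Among the other connexins, Gjb1, which codes for Cx32, a channel of myelinating Schwann cells, stood at 619, 685 and 709 normalised counts in Control and at 538, 429.7 and 326 in STREP animals. All STREP animals were below all Control animals, the log2 fold change was -0.64 ± 0.23 (SE, DESeq2 adjusted p = 0.116), and the fold change was 0.643 (95% interval 0.470 to 0.880). Without STREP replicate 1, the STREP animal nearest to the Control values, Gjb1 was called lower (-0.82, DESeq2 adjusted p = 0.0228). That choice of animal widens the difference by construction, so the call adds no support. Of the 11 Schwann cell markers, 6 were lower without overlap and none of these was called. Prx, a myelin protein, was called lower (-0.68 ± 0.21, DESeq2 adjusted p = 0.0425) with groups that overlapped and was not called by edgeR, and Sox10, a transcription factor of glia that is also used in the inner ear epithelium, was called higher by both tools (0.95 ± 0.19, DESeq2 adjusted p = 0.000104). The part of nerve content in the Gjb1 values was not tested. The lowest Schwann cell sum, 137525, was that of STREP replicate 2, while the lowest Gjb1 value was that of STREP replicate 3, whose sum was 238695.

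Gja1, the gene of Cx43, found in many tissues, stood at 846, 1185 and 548 normalised counts in Control and at 840.1, 876 and 761 in STREP animals (-0.06 ± 0.26). The Control animals spanned a wider range than the STREP animals, which all lay inside it. Gjc3, a connexin of Schwann cells and the cochlea, stood at 49.1, 22.95 and 49.0 in Control and at 86.5, 54.0 and 35.9 in STREP animals (0.54 ± 0.59), values that overlapped. Gja4, a connexin of endothelium, had a log2 fold change of 0.28 ± 0.36. Of the 19 connexins, 12 were tested and 9 had a mean of at least 10, with 4 log2 fold changes above 0, 5 below and a median of -0.058.

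Pannexins resemble connexins in fold but form channels in a single membrane. Panx1, the broadly expressed member that releases ATP, stood at 285, 300.1 and 302 normalised counts in Control and at 410.1, 336 and 325 in STREP animals. The groups did not overlap, and the log2 fold change was 0.27 ± 0.22 (DESeq2 adjusted p = 0.747). Panx2, best known from neurons, moved the other way, at 427, 527 and 364 in Control and at 244, 372 and 218 in STREP animals. Panx2 overlapped through STREP replicate 2 only and was not called (-0.66 ± 0.28, DESeq2 adjusted p = 0.252). Without that animal, the STREP animal nearest to the Control values, Panx2 was called lower (-0.93, DESeq2 adjusted p = 0.0298). Its removal widens the difference by construction, so that call adds no support. Panx3, a pannexin of skin and skeleton, had 16 counts in Control replicate 2 and 0 in the other libraries, so it was not tested.

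The sexes were also compared. The sex comparison was chosen after the values per animal had been seen, and it rests on 1 female in each group. In a DESeq2 fit with group and sex, 3 of the 17 members tested (17.6%) were called, all higher in females, beside 2.01% of the 3734 genes tested. They were Cldn9 (log2 difference, female minus male, 0.68 ± 0.15, DESeq2 adjusted p = 0.000823), Gjb2 (0.67 ± 0.17, DESeq2 adjusted p = 0.00916) and Gjb6 (0.64 ± 0.20, DESeq2 adjusted p = 0.0383). Since the comparison was made because these genes had been seen highest in the females, this count is a description. Independent filtering left fewer genes tested than in the group fit, 3734 against 16250, and 17 members against 45. The members left were the better counted ones, so calls are not compared between the 2 fits. The female was the highest animal in both groups for 8 of the 45 tested members (17.8%) and for 13.3% of all genes tested. The summed supporting cell markers were highest in the same animals, at 602430 in the Control female against 485427 and 570862 in the Control males, and at 963226 in the STREP female against 621044 and 580955 in the STREP males. Otog alone gave 410468 of the sum in the Control female and 729507 in the STREP female. In Control, Lfng, Slc1a3 and Otogl were highest in a male and the other listed markers in the female. In STREP animals every listed marker was highest in the female. The part of supporting cell content in the 3 differences was not tested. Whether the effect of streptomycin differed between the sexes was asked with an interaction term, and 0 of the 34 members with an adjusted p passed (lowest DESeq2 adjusted p = 0.914).

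**Figure D4:**
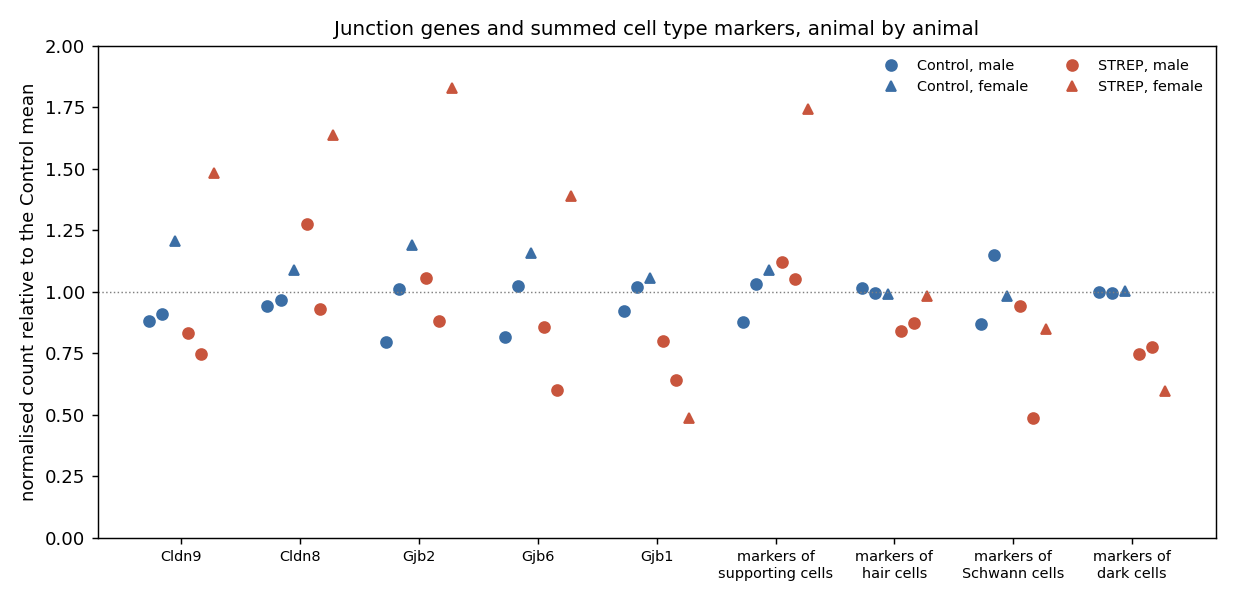
Normalised counts of 5 junction genes and of summed cell type markers in each animal, divided by the Control mean (dotted line), with circles for males and triangles for females. The STREP female stands highest for Cldn9, Cldn8, Gjb2, Gjb6 and the supporting cell sum, and lowest for Gjb1 and the dark cell sum.

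How firmly these genes can be said to be alike in both groups depends on their counts. Among the 32 members with a mean of at least 100, standard errors of the log2 fold change ran from 0.12 to 0.36, and the 95% interval lay within a 1.5-fold change in either direction for 20. Among the 9 members with a mean from 10 to 100, standard errors ran from 0.43 to 1.38, and that was so for 0, so a difference of that size was not detectable at this depth. These include Cldn15, Cldn17, Cldn20, Cldn22, Ildr2, Gjc1, Gjc3 and Gjd2.

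Partner proteins of tight junctions and cell polarity were also examined. From a list of 42 tight junction and polarity partners, 39 were found and tested, and 0 were called by DESeq2 or edgeR. An unadjusted DESeq2 p under 0.05 was found for 8 of the 39, a larger share than the 12.2% of all genes. Without overlap, 4 were higher and 3 lower in STREP animals, beside 17.8% of all genes tested in either direction. The median log2 fold change of the list was 0.026. A pair of them passed the adjusted p but stayed within the 1.5-fold limit. Arhgef2, a guanine nucleotide exchange factor held at tight junctions, averaged 4045 ± 178 normalised counts (SD) for Control and 5859.8 ± 159.9 for STREP (log2 fold change 0.53 ± 0.12, DESeq2 adjusted p = 0.000430), and Tjap1, a protein of tight junctions and the Golgi, 4583 ± 164 and 3110.0 ± 279.8 (-0.56 ± 0.13, DESeq2 adjusted p = 0.00142). Neither overlapped between groups.

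Several marker lists held more differences than the background of 12.2% of all genes with an unadjusted DESeq2 p under 0.05 and 17.8% without overlap. Of 11 HC markers, 7 had such a p and 7 did not overlap, 5 lower and 2 higher in STREP animals. Of 11 Schwann cell markers, 7 had such a p, with 6 lower and 1 higher without overlap. Of 8 supporting cell markers, 3 had such a p and 4 were higher without overlap. Gfi1, an HC transcription factor, was called higher (1.20) and Pvalb, a calcium buffer of HCs, lower (-1.44), by DESeq2 and edgeR, while Myo7a (-0.49) and Lhfpl5 (-0.45) passed the adjusted DESeq2 p only. The summed dark cell markers, from the potassium-secreting cells at the edge of the sensory epithelium, ran from 28163 to 28365 normalised counts in Control and from 16884 to 21951 in STREP animals, and Slc12a2, the potassium-loading cotransporter, passed the adjusted p (-0.55, DESeq2 adjusted p = 0.00350). Without Slc12a2, the sum of the other 5 dark cell markers overlapped, at 7482, 4764 and 6960.1 in Control and 5266, 5906 and 4051 in STREP animals. DESeq2 called Mrc1 (0.76) of the macrophage list and Tubb3 (1.28) of the neuronal list higher, and edgeR called neither. In the supporting cell, endothelial, melanocyte, dark cell and fibroblast lists 0 genes were called by DESeq2 or edgeR, with 3, 1, 2, 2 and 1 genes at an unadjusted DESeq2 p under 0.05. The part of such shifts in the junction gene values was not tested.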

How the data were processed

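RNA from 6 rats was sequenced after SMARTseq2 amplification. The authors aligned reads with STAR 2.5.3a and quantified genes with RSEM 1.3.0 (versions from the submitters' processing notes) on a Rnor6.0 annotation, and deposited expected counts per gene, unscaled. All were whole numbers (0 exceptions). Totals ran from 29333584 to 59906048, where 3 counts came to 0.0501 to 0.102 CPM. Such floors cover counting error only, whereas the 95% intervals of fold changes rest on the dispersion fitted between animals.

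All genes were fitted in R 4.3.3 with DESeq2 1.42.0, using size factors by median of ratios, Wald tests on group, independent filtering at 0.05 and Benjamini-Hochberg adjustment. A call needed an adjusted p under 0.05 and a fold change over 1.5. Ratios used log2(normalised count + 1) and an exact permutation test over animals. No pair of libraries of a group agreed within sampling noise. Labels do not pair animals or name litters, so p-values measure the spread between these samples. The titles of STREP replicates 1 and 2 share their number and differ in letters only, and whether these animals were related is not stated. Alternatives were edgeR 4.0.16 with and without a filter, TMM or library totals, 10 counts in 3 samples, no independent filtering, no fold threshold, thinning, a pseudocount of 0.5, a sex term, males alone, and leaving out each animal. Values per animal are given for members that were called, for those with an unadjusted p under 0.05 and no overlap, for the 3 best counted of each family, and for genes known from the inner ear. Lsr, Panx1 and Cldn20 are also given as members whose groups did not overlap. The members and lists were chosen with earlier results of these data known. A further claudin, some other members and 1 ratio are not reported here. Promoter sequences are RefSeq's on GRCr8.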

Additional observations from a re-analysis of the deposited data

How the results depend on the processing

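The single junction call, Cldn7, fell to 0 calls with the edgeR test (with and without a count filter, each with 5 members at an unadjusted p under 0.05), with library totals and among males alone (4 each). Leaving out 1 animal gave 1 to 2 calls. Ildr2 was added without Control replicate 2 and Gjb1 without STREP replicate 1. Without STREP replicate 2, Cldn11 and Panx2 replaced Cldn7. Each gained call came from leaving out the animal nearest to the other group, so these calls add no support. Calls over all genes were 527, against 264 and 210 with edgeR with and without the filter, 309 with library totals and 424 to 517 with 1 animal left out. Members without overlap were 8, against 18 among males alone, where only 2 animals a group are compared, and 8 to 14 with 1 animal left out. The share over all genes is not given for these refits. Their counts are therefore not read as a result about the members. The median stayed between 0.0078 and 0.083. The cause of these changes was not tested.

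Small log2 differences changed sign: Cldn9 (-0.043 with library totals, -0.021 with sex in the fit, -0.18 among males), Marveld2 (-0.019 with library totals), Cldn3 (-0.051) and Cldn14 (0.016) among males. With 1 animal left out, ranges crossed 0 for Cldn9 (-0.34 to 0.21), Marveld2 (-0.057 to 0.11), Cldn3 (-0.017 to 0.21), Cldn14 (-0.25 to 0.0080), Jam2 (-0.22 to 0.11), Gja1 (-0.30 to 0.24), Ildr1 (-0.19 to 0.027), Gjb6 (-0.46 to 0.16) and Gjb2 (-0.046 to 0.53). The ratios reported kept their sign, Gjb6 to Gjb2 at -0.48 to -0.35. Scaling moved the median of all genes by at most -0.013. No paired analysis was possible because the labels number no replicates. Members with a mean under 100 had wide intervals.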

Other observations

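Outside the junction genes, other large-pore channels and the regulators of epithelial genes were read from hand-written lists. Of 14 large-pore channel genes, 11 were found and 8 tested. Lrrc8a, the obligatory subunit of volume-regulated anion channels, was called higher. It averaged 1099 ± 235 normalised counts in Control and 1711 ± 148 in STREP (SD over 3 animals), and its log2 fold change was 0.64 ± 0.20 (SE) with no overlap between groups (DESeq2 adjusted p = 0.0353). Its partners Lrrc8b, Lrrc8c, Lrrc8d and Lrrc8e had log2 fold changes of 0.16, 0.21, -0.035 and 0.032. The edgeR test called 0 genes of this list, and 1 had an unadjusted DESeq2 p under 0.05. Among the claudin-related tetraspan proteins, 11 of 12 were found, 7 were tested and 0 were called by DESeq2 or edgeR, with Tmem47 alone at an unadjusted DESeq2 p under 0.05 (0.44, DESeq2 adjusted p = 0.338).

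All 17 regulators of epithelial transcription and splicing were found and 16 tested. Klf5, an epithelial transcription factor, was called higher, averaging 455 ± 79.3 normalised counts in Control and 777 ± 107 in STREP animals (0.77 ± 0.22, DESeq2 adjusted p = 0.0144). Zeb1 is a repressor that binds E-boxes with the letters shown for Cldn7, Gjb2 and Gjb6. It stood at 1161, 1066 and 1103 normalised counts in Control and at 836, 537 and 808 in STREP animals. The groups did not overlap, but Zeb1 was not called (-0.61 ± 0.21, DESeq2 adjusted p = 0.0747). Snai1 (-0.20), Snai2 (-1.14) and Zeb2 (0.28), which bind the same letters, overlapped between groups. Binding was not measured, and a link between these repressors and the junction gene values was not tested. The grainyhead factor Grhl2 had a log2 fold change of 0.18 ± 0.20. The edgeR test called 0 genes of this list.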
